A study of Mus musculus with 2 samples.

Results

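Hmox1, Slc40a1, Spic, Blvra, Blvrb, Cd163, Slc11a1, Fth1 and Ftl1 form the haem and iron recycling genes described here, 9 of the 27032 genes measured. They were chosen by function, with earlier results of these data known. All 9 were present in both samples and passed the filter on low counts between cell classes. They were measured by scRNA-Seq in spleen cells of wild-type mice, enriched with CD11c magnetic beads, in 2 samples of 1 condition with no treatment named, called replicates 1 and 2. The mice were adult, of both sexes, on the C57BL/6J background and kept free of specific pathogens. No source used here says how many mice a sample pools, so p-values measure the spread between these samples, which may be technical. On the BD Rhapsody system used, each captured transcript is counted once by a unique molecular identifier (UMI). The tables held 3308 cells with 46953398 UMIs in replicate 1 and 3085 cells with 43137746 UMIs in replicate 2, and the samples shared 0 cell barcodes. After filtering, 2928 and 2725 cells remained, with a median of 12220 and 11435 UMIs.

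Cells were sorted into 9 classes by the UMIs of 14 genes, none of which is among the recycling genes, and a cell took the first class it matched. Macrophages held at least 20 Vcam1 and 5 C1qb UMIs, and there were 293 of them in replicate 1 and 130 in replicate 2, or 10.01% and 4.77% of the cells. The other classes were mature DCs (Ccr7 and Fscn1, 138 and 173 cells), cDC1s (Clec9a and Xcr1, 684 and 570), pDCs (Siglech and Ccr9, 13 and 19), B cells (Cd79a, 65 and 172), T cells (Cd3e, 41 and 159), NK cells (Ncr1, 38 and 36), DCIR2 cDC2s (Clec4a4, 556 and 456) and CLEC10A cDC2s (Clec10a with Cd209a, 484 and 408). The last 2 classes and the cDC1s are called resident cDCs below. A further 616 and 602 cells matched no class. Each class was checked against other marker genes, where a marker counted as raised if its level plus 10 was more than 2-fold that of the other classified cells in both samples. All 12 macrophage markers were raised in the macrophages, all 8 markers of their class in mature DCs, cDC1s, B, T and NK cells, 7 of 8 in pDCs, 6 of 8 in CLEC10A cDC2s and 4 of 8 in DCIR2 cDC2s. Of the few pDCs, 9 and 12 also matched another class, as did 209 and 156 of the DCIR2 cDC2s. Of 8 erythroid markers, 6 were raised in the macrophages, with a summed level of 3838 and 993 counts per 1000000 UMIs (CPM), against 5.33 to 509 CPM in the other classes. The part of engulfed or attached red cells in the levels below was not tested.

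Macrophages of the spleen engulf aged red cells, and the haem freed from haemoglobin is opened by haem oxygenase 1 into iron, carbon monoxide and biliverdin, which biliverdin reductases turn into bilirubin. The iron is moved out of the phagosome, stored in ferritin or returned to the blood through ferroportin, the only known iron exporter of mammalian cells. SPIC is a transcription factor of the ETS family needed for the development of red pulp macrophages, and haem is known to induce it by releasing repression by BACH1. CD163 takes up complexes of haemoglobin and haptoglobin.

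The recycling genes were macrophage genes to very different degrees. Together they made up 2.81% of all UMIs of the macrophages in replicate 1 and 2.52% in replicate 2, against 0.111% to 0.459% in the other 8 classes. The mean levels of Slc40a1, Cd163, Hmox1 and Spic in the next class were lower by 43.8-fold or more, Blvrb and Slc11a1 each had a further class well above the rest, Blvra was found at a low level in every class, and both ferritin chains were abundant in all cells. Against resident cDCs, all 9 genes were higher in the macrophages (edgeR's quasi-likelihood test on UMI sums per sample and class, Benjamini-Hochberg adjusted over the 11903 genes tested). Among all genes tested, 27.7% were called higher and 53.8% were called in either direction in that comparison, and the median log2 fold change was 5.84 for the 9 genes and -0.02 for all genes. The count was 9 under every alternative processing that was run, including each left-out sample sum.

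**Figure D1:**
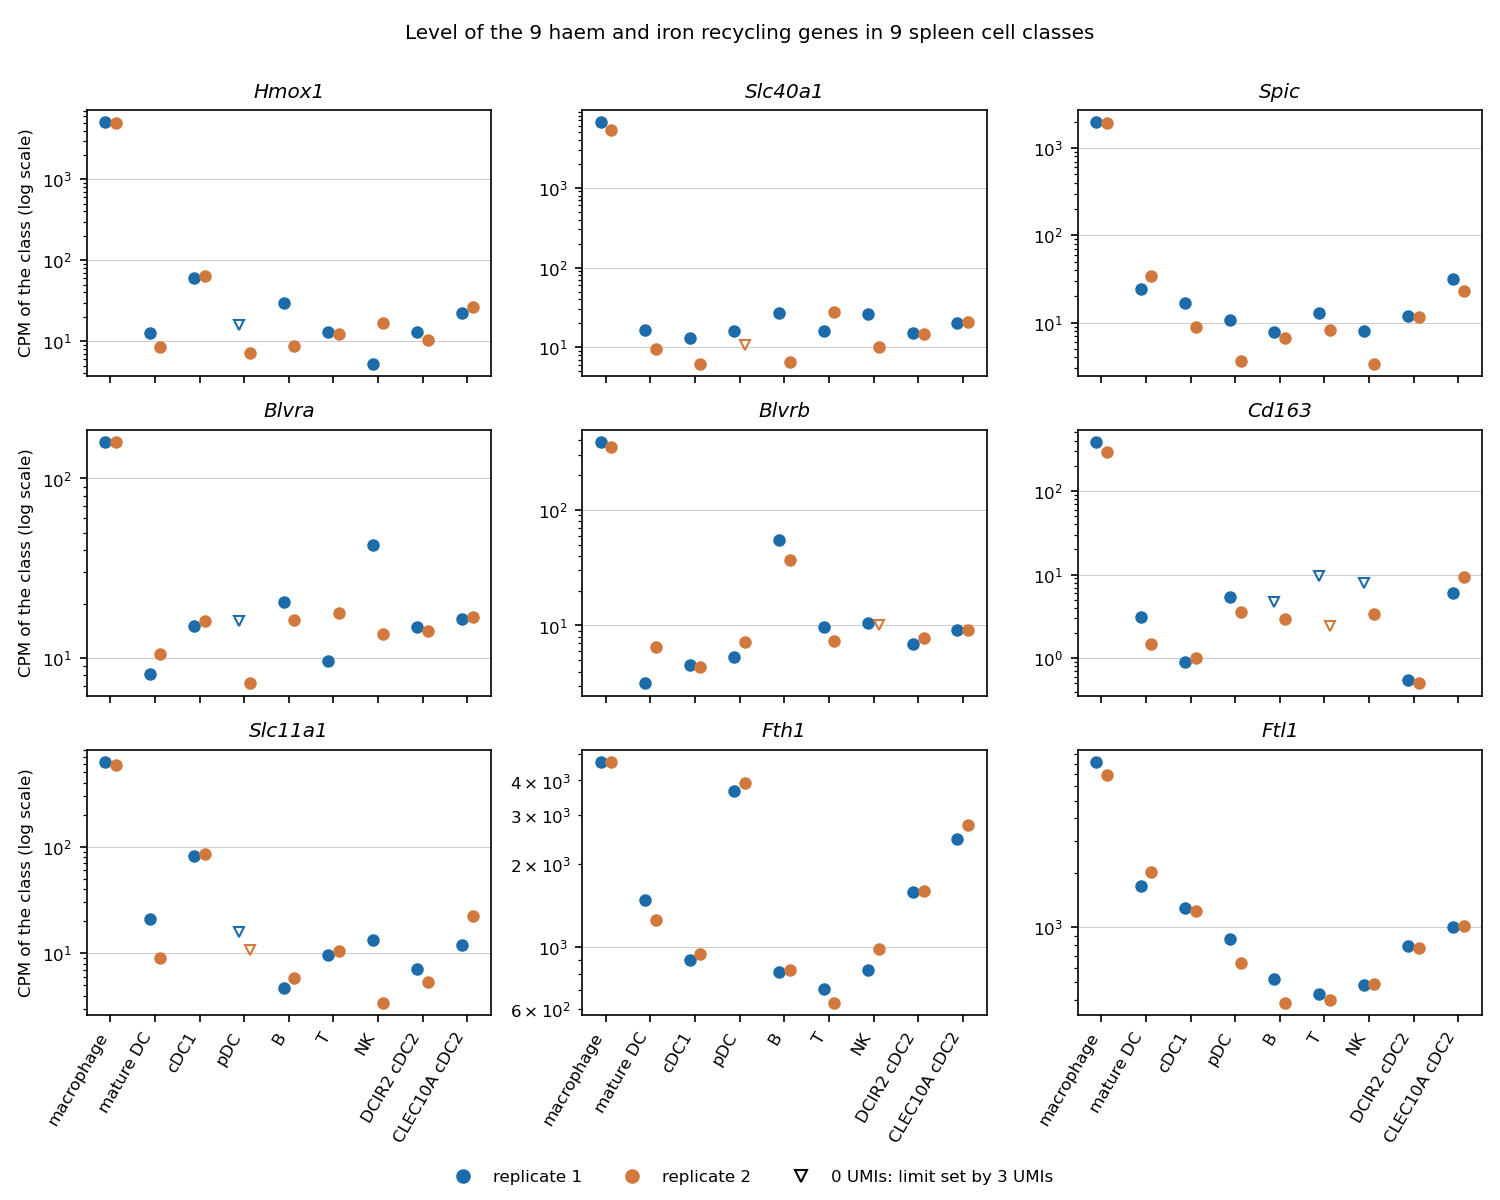
Level of each of the 9 genes, in CPM on a log axis, in the 9 cell classes, with 1 point per replicate (UMIs summed over the cells of a class) and an open triangle at the limit that 3 UMIs would set where a class held 0 UMIs. Both macrophage points lie above every other point in all 9 panels, by a mean ratio to the next class that runs from 1.23 for Fth1 to 274 for Slc40a1.

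Cd163, the gene of the uptake receptor (GRCm38, chr6:124304656-124330527, plus strand), stood at 385 CPM in the macrophages of replicate 1 and 291 CPM in those of replicate 2. CLEC10A cDC2s were next, at 6.04 and 9.40 CPM, and no other class exceeded 5.33 CPM in either sample. T cells held 0 Cd163 UMIs in both samples, where 3 UMIs would have been 9.66 and 2.44 CPM. The difference from resident cDCs was 7.79 ± 0.18 on the log2 scale (SE, n = 2 samples, edgeR adjusted p = 3.6e-17). Cd163 was also the gene with the least even spread among the macrophages themselves. No Cd163 UMI was found in 42.3% of the macrophages of replicate 1 (95% exact binomial interval 36.6 to 48.2, counting error only) and 46.2% of those of replicate 2 (37.4 to 55.1). At the other end, 67 and 21 macrophages with at least 10 UMIs, a limit chosen after the values were seen, held 83.1% and 81.1% of the gene's UMIs. In these cells Hmox1 stood at 4506 and 4848 CPM, and in the macrophages with no Cd163 UMI at 5458 and 4734 CPM. Spic was 2218 and 2223 CPM in the former and 1794 and 1790 CPM in the latter. Spic was thus higher in the cells rich in Cd163 in both samples, whereas Hmox1 was lower in replicate 1 and higher in replicate 2. The median depth was 22087 and 21124 UMIs in the former and 18282 and 17957 UMIs in the latter.

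Among the genes of haem breakdown, Hmox1, which encodes haem oxygenase 1 (chr8:75093621-75100589, plus strand), reached 5084 and 4956 CPM in the macrophages. At least 1 Hmox1 UMI was found in 99.7% and 99.2% of them. cDC1s came next, at 61.2 and 63.6 CPM, followed by CLEC10A cDC2s at 22.3 and 26.3 CPM. From the CLEC10A cDC2s down to the mature DCs each class overlapped its neighbour in the order, and pDCs were lowest, with 0 and 2 UMIs. Macrophages exceeded resident cDCs by 7.66 ± 0.15 on the log2 scale (SE, n = 2, edgeR adjusted p = 8.5e-19).

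Blvra and Blvrb encode both biliverdin reductases, and BLVRB is also known as flavin reductase. Blvra (chr2:127070665-127097084, plus strand) stood at 160 and 159 CPM in the macrophages. In all other classes it lay between 0 and 42.4 CPM, and the next class, the NK cells, held 42.4 CPM in replicate 1 and 13.6 CPM in replicate 2, so that its place in the order rests on replicate 1. Blvrb (chr7:27447978-27466144, plus strand) stood at 386 and 346 CPM in the macrophages and at 54.9 and 36.9 CPM in B cells, the next class. B cells did not overlap with any class below them for Blvrb, and the CLEC10A cDC2s that followed held 9.16 and 9.19 CPM. Of the B cells, 26.2% and 20.3% held a Blvrb UMI, against 2.44% and 3.77% of the T cells. B cells had a median of 7677 and 6982 UMIs per cell and T cells of 6145 and 6490. After each cell was thinned to 3000 UMIs the shares were 10.4% and 9.89% in B cells and 1.96% and 2.02% in T cells. A single cell with at least 5 Blvrb UMIs held 42.9% of the 35 UMIs of the B cells in replicate 1, and no B cell of replicate 2 held as many. The differences between macrophages and resident cDCs were 3.43 ± 0.14 for Blvra and 5.84 ± 0.14 for Blvrb (log2 scale, SE, n = 2, edgeR adjusted p = 3.4e-14 and 1.7e-17).

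The chains of ferritin, the iron store, behaved differently from each other. Fth1, which encodes the heavy chain that oxidises iron (chr19:9980598-9985098, plus strand), stood at 4648 and 4666 CPM in the macrophages. pDCs came close, at 3651 and 3922 CPM, and were followed by CLEC10A cDC2s at 2469 and 2765 CPM and DCIR2 cDC2s at 1589 and 1601 CPM. T cells were lowest, at 705 and 628 CPM. None of the first 5 classes in this order overlapped with the next. Ftl1, which encodes the light chain (chr7:45457944-45459884, minus strand), stood at 8183 and 6927 CPM in the macrophages, 1694 and 2033 CPM in mature DCs and 1279 and 1228 CPM in cDC1s, and again T cells were lowest at 428 and 400 CPM. Over macrophages and resident cDCs the difference was 1.65 ± 0.08 for Fth1 and 2.9996 ± 0.10 for Ftl1 (log2 scale, SE, n = 2, edgeR adjusted p = 7.5e-13 and 3.1e-15). Ftl1 values are uncertain in 1 respect, because Ftl1-ps1, annotated as a copy of Ftl1, took 625 and 527 CPM in the macrophages and followed Ftl1 across the classes with a Pearson's r of 0.991 over 18 sums. Ftl1 also overlaps the annotated genes Gm22133, on the same strand, and Gm10252, on the other.

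The ratio of heavy to light chain UMIs accordingly differed between classes. It was 0.568 and 0.674 in macrophages, 0.706 and 0.770 in cDC1s and 0.876 and 0.618 in mature DCs. It was above 1.5 in every other class, with 1.65 and 1.57 in T cells, 2.00 and 2.08 in DCIR2 cDC2s, 2.45 and 2.72 in CLEC10A cDC2s and 4.25 and 6.17 in pDCs. Transcripts of both genes may be captured with different efficiency, so ratios are compared between classes only, and a ratio of 1 does not mean equal numbers of transcripts. No sample of the 3 classes with low ratios reached the range of the other 6. The classes with low ratios did not share a level of ferritin, since the summed level of both chains was 12831 and 11593 CPM in macrophages and 2183 and 2174 CPM in cDC1s.

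**Figure D2:**
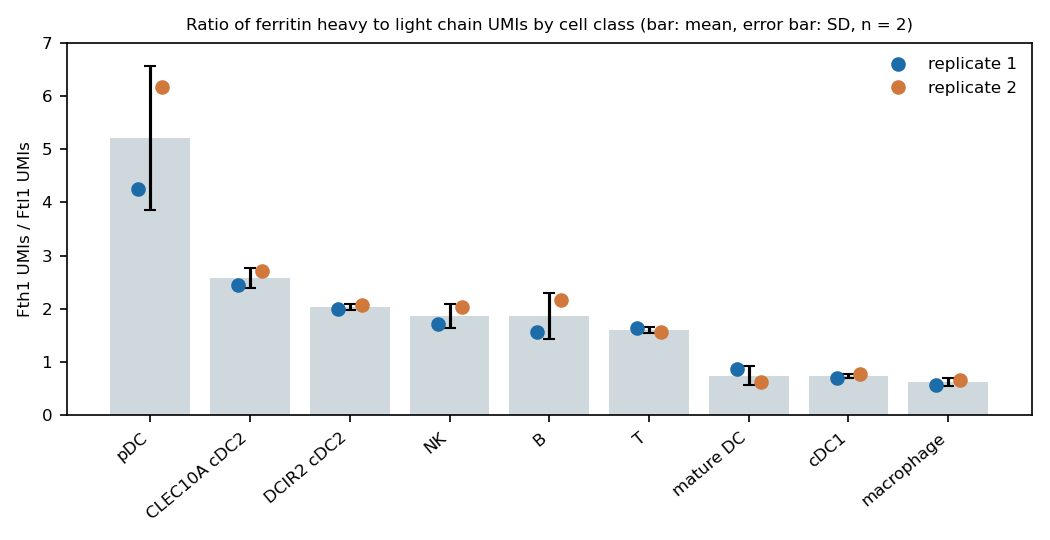
Ratio of Fth1 to Ftl1 UMIs on a linear axis from 0 in the 9 cell classes, with bars for the mean, error bars for the SD of 2 samples and points for the replicates. Macrophages, cDC1s and mature DCs lie below 1 and all other classes above 1.5, with pDCs highest at 4.25 and 6.17.

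The iron exporter ferroportin is encoded by Slc40a1 (chr1:45908068-45926523, minus strand). It stood at 6660 and 5320 CPM in the macrophages and between 0 and 27.7 CPM in all other classes of both samples. Each of these 8 classes overlapped its neighbour in the order of levels. The share of cells with a Slc40a1 UMI, thinned to 3000 UMIs per cell, was 100% and 97.7% in macrophages and ran from 0% to 5.71% in the other classes, with 4.87% and 5.14% in T cells, taken here as a class that should lack the gene. The 38 NK cells of replicate 1 gave the 5.71%, and no other class exceeded the T cells of its own sample, so these shares are read as background. At least 20 Slc40a1 UMIs were held by 288 of 293 and 121 of 130 macrophages and by 6 and 3 cells of all others. In replicate 1, all 17 Slc40a1 UMIs of the B cells came from 1 cell. The difference between macrophages and resident cDCs, 8.78 ± 0.21 on the log2 scale (SE, n = 2, edgeR adjusted p = 1.2e-17), was the highest of the 9.

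Slc11a1 encodes NRAMP1, which carries iron and other divalent metals out of the phagosome (chr1:74375195-74386062, plus strand). It stood at 625 and 590 CPM in the macrophages, followed by cDC1s at 82.0 and 86.1 CPM. All other classes lay between 0 and 22.4 CPM, and pDCs held 0 UMIs in both samples. A Slc11a1 UMI was found in 60.7% and 65.8% of the cDC1s, which had a median of 19521 and 20953 UMIs, and in 4.88% and 5.66% of the T cells. Thinned to 3000 UMIs, the shares were 19.7% and 21.0% against 2.18% and 3.15%. In contrast to Slc40a1, the transcript in cDC1s was thus spread over many cells. Macrophages exceeded resident cDCs by 4.94 ± 0.16 on the log2 scale (SE, n = 2, edgeR adjusted p = 2.8e-15).

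Spic (chr10:88674772-88685015, minus strand) stood at 1980 and 1939 CPM in the macrophages. Mature DCs and CLEC10A cDC2s followed and overlapped, at 24.0 and 34.0 CPM and at 31.9 and 23.1 CPM. All other classes held 3.40 to 16.6 CPM. The difference from resident cDCs was 7.004 ± 0.15 on the log2 scale (SE, n = 2, edgeR adjusted p = 3.0e-18).

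Promoters were read from RefSeq (GRCm38.p6), which held the 250 bases before and 50 bases after the start of 7 of the 9 genes. The motifs TGACNNNGC, GAGGAA and CACGTG were searched on both strands. TGACNNNGC, the core bound by NRF2, MAF and BACH1 dimers, was found in the promoter of Blvra alone and in 12.4% of 32851 promoters. GAGGAA, a core bound by PU.1 and SPIC, was found in that of Slc11a1 alone and in 28.3% of all promoters. CACGTG, the E-box bound by TFEB and TFE3, was found in 0 of the 7 and in 7.15% of all. Both matches are shown because they were the only ones among the 7 genes, with the motif in capitals and 10 bases on each side. Distances run from the first base of the motif to the start used by RefSeq, which differs from the gene starts given above. They are letters in a window, not sites of binding.
Blvra, chr2:127070598-127070626, plus strand, motif on the minus strand 49 bases before the RefSeq start: cacgggaattGCTCGGTCAaggctccgcc
Slc11a1, chr1:74375041-74375066, plus strand, motif on the plus strand 152 bases before the RefSeq start: gtatccaggaGAGGAAcgaaggtcaa

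The share of all UMIs of a gene that came from macrophages was also computed. On average over both samples, macrophages held 97.0% ± 1.38 (SD, n = 2) of the Slc40a1 UMIs, 93.9% of those of Cd163, 92.5% of Hmox1, 90.2% of Spic and 81.0% of Blvrb. They held 61.2% of the Slc11a1 UMIs, 51.5% of Blvra, 42.8% of Ftl1 and 25.4% of Fth1. For Slc11a1, cDC1s held most of the remainder, 22.5% and 36.0% of all UMIs. All 9 shares were higher in replicate 1, which held the larger share of macrophages. The shares also depend on the CD11c enrichment and do not describe the whole spleen.

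**Figure D3:**
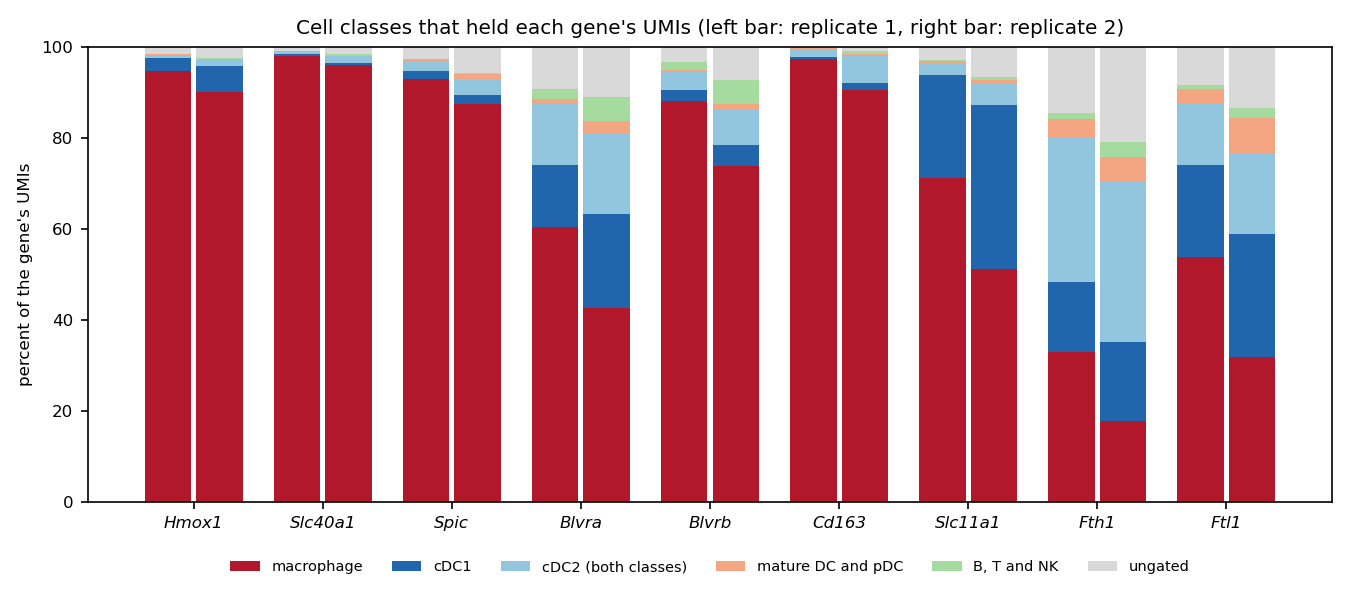
Percent of the UMIs of each of the 9 genes that came from each group of cell classes, with the left bar of a pair for replicate 1 and the right bar for replicate 2. The macrophage part ranges from 98.0% and 96.0% for Slc40a1 to 32.9% and 17.8% for Fth1.

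Among single macrophages the genes differed in how evenly they were carried. Per 10000 UMIs of a cell, Slc40a1 had a median of 67.2 and 52.6 UMIs, and the middle 90% of cells lay between 32.9 and 102 in replicate 1 and between 11.1 and 95.03 in replicate 2. Hmox1 had a median of 49.6 and 50.5, but a range of 5.64 to 101.1 and 2.66 to 102, so that its lower tail reached further down. The coefficient of variation was 0.586 and 0.653 for Hmox1, 0.313 and 0.433 for Slc40a1 and 1.53 and 2.01 for Cd163. Fth1 had 0.456 and 0.420 and Ftl1 0.456 and 0.437. Blvra, with a median of 2 and 2.5 UMIs per cell, was at 0 in 17.7% and 19.2% of the macrophages.

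Hmox1 and the genes of iron export and storage varied together from macrophage to macrophage. Spearman's rho between Hmox1 and Slc40a1 was 0.51 over 293 cells and 0.69 over 130 cells. Between Hmox1 and Ftl1 it was 0.53 and 0.60, between Hmox1 and Fth1 0.41 and 0.47, and between the ferritin chains 0.65 and 0.68. Hmox1 and Spic gave 0.09 and 0.29, and Hmox1 and Cd163 -0.10 and 0.08. All of these are descriptions over cells that share a library and are scaled to the same total. The number of UMIs of a cell had a rho of 0.04 and 0.05 with Hmox1.

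**Figure D4:**
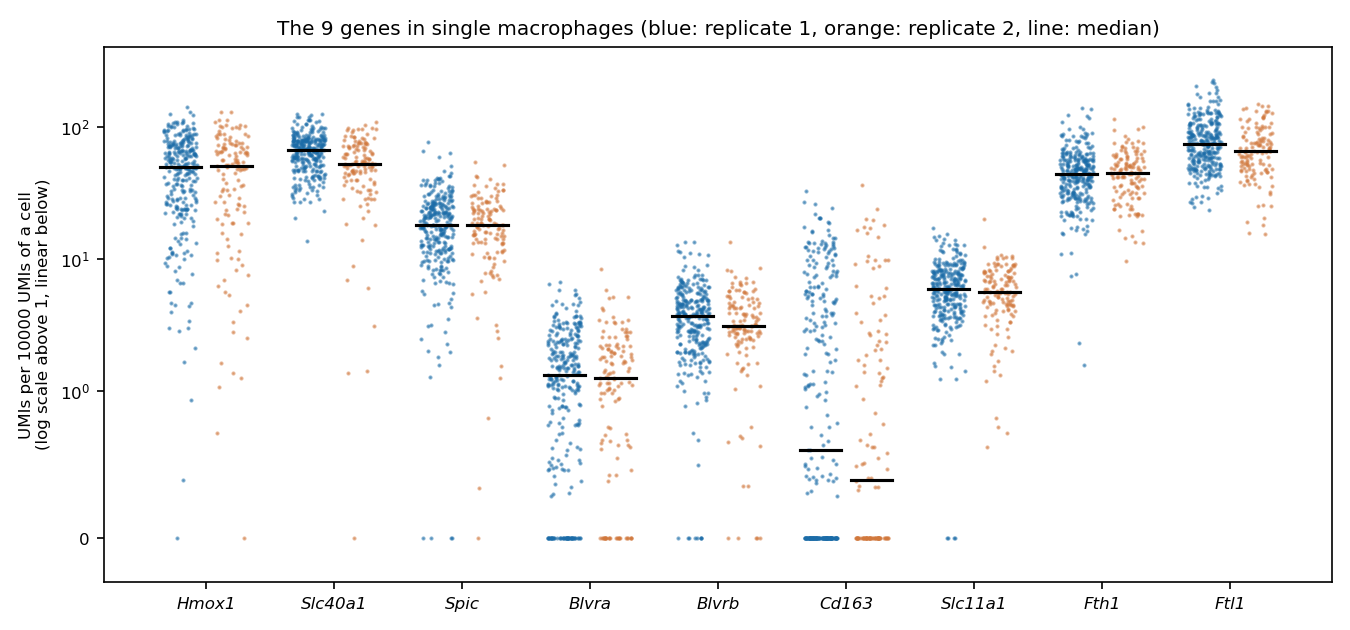
UMIs of each gene per 10000 UMIs of a macrophage, on an axis that is logarithmic above 1 and linear below, with 1 point per cell (293 in replicate 1, 130 in replicate 2) and a line at the median. Cd163 falls into cells at 0 (42.3% and 46.2%) and a wide upper range, whereas Slc40a1, Fth1 and Ftl1 form compact clouds.

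The gate on Vcam1 has an edge that the recycling genes allow to be described. In replicate 1, 16 macrophages with 20 to 29 Vcam1 UMIs held 4910 CPM of Hmox1 and 5114 CPM of Slc40a1, and 10 cells just outside, with 10 to 19 Vcam1 UMIs, held 2576 and 2662 CPM. In replicate 2, 6 cells just inside held 506 and 749 CPM and 9 cells just outside 516 and 459 CPM. Cells near the limit thus differed between the samples more than the cells inside and outside it did in replicate 2. Doubling the UMIs required by each gate lowered the macrophage share of Slc40a1 UMIs from 97.0% to 95.001%.

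The study defined marginal metallophilic macrophages (MMMs) by Siglec1, and macrophages were therefore split by whether they held a Siglec1 UMI. There were 112 and 56 macrophages with and 181 and 74 without one, with a median depth of 20859 and 19019 against 17903 and 17987 UMIs. None of the 9 genes passed the test. Hmox1 was 5078 and 5327 CPM with Siglec1 and 5089 and 4656 CPM without, and Slc40a1 was 6756 and 5396 CPM with and 6591 and 5258 CPM without. Across the 9 genes the log2 fold changes ran from -0.13 to 0.15. In edgeR's test, 0 of the 9 were called and 0 had an unadjusted p under 0.05, and DESeq2 gave 0 and 0, against 0.021% of all 9522 genes called by edgeR. Siglec1 was at 42.5 and 32.2 CPM in the macrophages, so that a cell without a UMI may still carry the transcript, and a p that misses the threshold does not show that the levels are alike.

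Among DCs the recycling genes were low but not alike. Compared with both cDC2 classes, 3 genes were higher and 2 lower in cDC1s, where 18.6% of all genes tested were called higher and 17.3% lower (35.9% in all). Slc11a1 stood at 82.0 and 86.1 CPM in cDC1s, 7.19 and 5.33 CPM in DCIR2 cDC2s and 11.9 and 22.4 CPM in CLEC10A cDC2s. This was a log2 difference of 3.19 ± 0.19 (SE, n = 2, edgeR adjusted p = 1.4e-10). Hmox1, at 61.2 and 63.6 CPM against 13.1 and 10.5 CPM and 22.3 and 26.3 CPM, was higher by 2.05 ± 0.17 (adjusted p = 6.8e-09). For both genes, each cDC1 value lay above all cDC2 values. For Hmox1 this rested on the 12 and 11 cDC1s with at least 20 Hmox1 UMIs described below. All other cDC1s stood at 14.9 and 22.5 CPM, within the range of the cDC2 values, from which no such cells were left out. Ftl1 was higher by 0.67 ± 0.12 (adjusted p = 1.6e-04), whereas Fth1 fell by 0.97 ± 0.10 (adjusted p = 9.4e-08). Blvrb, at 4.60 and 4.40 CPM in cDC1s, was lower by a log2 difference of -0.69 ± 0.22 (adjusted p = 0.020), and this call was lost without either cDC1 sum (adjusted p = 0.111 without replicate 1 and 0.125 without replicate 2) and with doubled gates (-0.64, adjusted p = 0.0999). Slc40a1 had a log2 difference of -0.68 ± 0.27 (adjusted p = 0.059), and of -0.72 (adjusted p = 0.018) with the sample as a block. Without the cDC1 sum of replicate 1, Slc40a1 (-1.29, adjusted p = 0.0071) and Spic (-0.84, adjusted p = 0.0090) were called lower as well. Macrophage markers summed to 311 and 273 CPM in cDC1s, below their 564 to 997 CPM in cDC2s, but Csf1r among them is also a listed marker of CLEC10A cDC2s.

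The Hmox1 transcript of cDC1s came from few cells. Only 20.03% and 20.7% of the cDC1s held a Hmox1 UMI, against 9.76% and 8.18% of the T cells, which are shallower. Thinned to 3000 UMIs per cell, the shares were 5.78% and 6.98% in cDC1s against 3.23% and 3.36% in T cells. With at least 5 UMIs each, 16 and 26 of the cDC1s held 80.9% and 83.0% of the gene's UMIs in this class. At a limit of 20 UMIs, chosen after the values were seen, 12 and 11 cells, or 1.75% and 1.93% of the cDC1s, held 76.1% and 65.3%. In these cells Hmox1 stood at 2673 and 2183 CPM and Ftl1 at 5043 and 5229 CPM, against 14.9 and 22.5 CPM and 1213 and 1151 CPM in all other cDC1s. Clec9a, a cDC1 gene of the gate, was at 1518 and 1303 CPM in them and at 1512 and 1325 CPM in the others. Xcr1, the other gene of that gate, was lower in them in both samples, at 350 and 791 CPM against 998 and 1051 CPM. Slc40a1 had 73 UMIs in the 12 cells of replicate 1, of which 49 came from 1 cell, and 2 UMIs in the 11 cells of replicate 2. Likewise Vcam1 stood at 186 CPM in replicate 1 and 40.01 CPM in replicate 2. In replicate 2, cDC1s rich in Hmox1 and Ftl1 thus carried next to none of the ferroportin transcript. In contrast, cells with 5 or more UMIs held 36.8% and 36.3% of the Slc11a1 UMIs of the cDC1s.

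The study also singled out Langerin+ cDC1s, defined by Cd207. With a Cd207 UMI there were 116 and 113 cDC1s, and 568 and 457 were without, with a median of 22445 and 23444 UMIs against 19024 and 20248. Of the 8 recycling genes that passed the filter (Cd163 did not), 3 were higher with Cd207, and 0.435% of all 11044 genes tested were called higher (0.869% in all). Hmox1 was 108 and 91.9 CPM with Cd207 and 50.4 and 55.6 CPM without, a log2 difference of 1.01 ± 0.12 (SE, n = 2, edgeR adjusted p = 0.0066). Slc11a1 was 110 and 122 CPM against 75.7 and 75.8 CPM (0.71 ± 0.10, adjusted p = 0.012), and Ftl1 1434 and 1416 CPM against 1244 and 1175 CPM (0.33 ± 0.05, adjusted p = 0.017). In each of the 3, both values with Cd207 lay above both values without. No gene of the 9 was called where at least 2 Cd207 UMIs were required, with log2 differences of 1.07, 0.69 and 0.40 and adjusted p of 0.331, 0.091 and 0.174. Of the cDC1s rich in Hmox1, 3 of 12 and 3 of 11 held Cd207, and without the rich cells Hmox1 was 17.9 and 36.2 CPM with Cd207 and 14.2 and 18.6 CPM without. Slc11a1 without these cells was 109 and 122 CPM against 75.04 and 75.5 CPM. The gap in Hmox1 thus narrowed in CPM in both samples. As a ratio it narrowed in replicate 1 only and was larger in replicate 2. The gap in Slc11a1 stayed. When cells holding C1qb were left out, an alternative chosen after seeing the data, Hmox1 was not called (0.51, adjusted p = 0.588) and Slc11a1 (0.72, adjusted p = 0.013) and Ftl1 (0.33, adjusted p = 0.019) were. Ftl1 was not called without either sum of cells with Cd207 (0.32, adjusted p = 0.083, without replicate 1 and 0.34, adjusted p = 0.0502, without replicate 2), and Spic was called higher without that of replicate 2 (1.95, adjusted p = 0.0061).

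Between the cDC2 classes, 5 genes were higher in CLEC10A cDC2s than in DCIR2 cDC2s and 0 were lower, where 3.71% of all genes tested were called higher and 1.76% lower (5.48% in all). Cd163 stood at 6.04 and 9.40 CPM, from 33 and 44 UMIs, against 0.553 and 0.4997 CPM, from 4 and 3 UMIs, a log2 difference of 3.84 ± 0.49 (SE, n = 2, edgeR adjusted p = 6.5e-05). Fth1 was 2469 and 2765 CPM against 1589 and 1601 CPM (0.79 ± 0.11, adjusted p = 1.0e-04). Spic was 31.9 and 23.1 CPM against 11.9 and 11.7 CPM (1.30 ± 0.24, adjusted p = 0.0021). Hmox1 differed by 1.11 ± 0.24 (adjusted p = 0.0076) and Slc11a1 by 1.4965 ± 0.30 (adjusted p = 0.0045). Few CLEC10A cDC2s held much of some of these transcripts. Cells with at least 5 Spic UMIs, 8 of 484 and 6 of 408, held 51.1% and 50% of the Spic UMIs. For Hmox1, 7 and 3 such cells held 43.4% and 46.3%, and for Slc11a1, 0 and 7 held 0% and 54.3%. For Cd163, 3 and 1 held 57.6% and 11.4%, whereas 469 and 398 cells held at least 5 Fth1 UMIs. For all 5, both CLEC10A values lay above both DCIR2 values. Macrophage markers moved the same way, with a sum of 874 and 997 CPM against 579 and 564 CPM, and C1qb was 16.3 and 76.7 CPM against 5.53 and 6.996 CPM. The macrophage list shares Csf1r with the marker list of the CLEC10A cDC2s, so its sum is not a measure of macrophage transcript alone. When all cells outside the macrophages that held any C1qb UMI were left out, again chosen after seeing the data, Hmox1 (1.11), Spic (0.91), Cd163 (4.18) and Fth1 (0.77) were still called, and Slc11a1 was not (0.89, adjusted p = 0.074). Without the CLEC10A sum of replicate 2, Hmox1 (0.97, adjusted p = 0.129) and Slc11a1 (0.97, adjusted p = 0.214) were not called either, which left 3 genes, and without that of replicate 1 Spic was not (1.05, adjusted p = 0.065). Ftl1 had an adjusted p of 0.073 and, with the sample as a block, of 0.040.

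Mature DCs, the CCR7+ cells that have left the resident state, differed from resident cDCs in 3 genes, with 2 higher and 1 lower. Among all genes tested, 17.5% were called higher and 15.9% lower (33.4% in all). Since 3 of 9 is near that share, the count is no result about the 9 genes as a set. Ftl1 stood at 1694 and 2033 CPM and was higher by 0.94 ± 0.11 on the log2 scale (SE, n = 2, edgeR adjusted p = 1.4e-06). Spic, at 24.0 and 34.0 CPM, was higher by 0.90 ± 0.23 (adjusted p = 0.0050) and was found in 16.7% and 18.5% of the mature DCs against 4.88% and 3.77% of the T cells, which are shallower than mature DCs, with a median of 6145 and 6490 UMIs against 10399 and 10738. Hmox1, at 12.6 and 8.50 CPM, was lower by a log2 difference of -1.30 ± 0.29 (adjusted p = 0.0015). The resident mean included the cDC1s, at 61.2 and 63.6 CPM, most of it from the few cells rich in Hmox1. DCIR2 cDC2s stood at 13.1 and 10.5 CPM, a range that overlapped with the mature DCs. The 12 macrophage markers summed to 265 and 254 CPM in mature DCs, lower than in any resident cDC class. Vcam1, a gate gene of the macrophages and not among these markers, was higher instead, at 60.5 and 72.5 CPM against 14.9 to 26.9 CPM in the resident cDC classes, and its part in the Spic result was not tested. Without the mature DC sum of replicate 2 the call for Ftl1 was the only one left (Spic 0.58, adjusted p = 0.266, and Hmox1 -1.04, adjusted p = 0.068), and without that of replicate 1 Slc11a1 was called lower as well (-1.18, adjusted p = 0.045). With doubled gates Hmox1 was not called (-0.72, adjusted p = 0.142).

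pDCs rested on 13 and 19 cells and differed from resident cDCs in 4 genes, where 4.55% of all genes were called higher and 6.62% lower (11.2% in all). Fth1, at 3651 and 3922 CPM, was higher by 1.01 ± 0.09 on the log2 scale (SE, n = 2, edgeR adjusted p = 3.0e-07), or 1.25 relative to the median of all genes, which lay at -0.24. Ftl1, at 858 and 636 CPM, had a log2 difference of -0.70 ± 0.14 (adjusted p = 0.0019), or -0.46 relative to that median. Both chains thus moved in opposite directions in the same cells. Hmox1, with 0 and 2 UMIs, had a log2 difference of -2.86 ± 0.81 (adjusted p = 0.026). Its resident mean again included the cDC1s rich in Hmox1. Slc11a1 had 0 UMIs in both samples and was at least 2.11-fold and 3.50-fold lower than the mean of resident cDCs, taking 3 UMIs per sample as the limit. That limit, 16.0 and 10.8 CPM, lay above the DCIR2 cDC2s, at 7.19 and 5.33 CPM. In replicate 1 it also lay above the CLEC10A cDC2s, at 11.9 CPM. The values therefore cannot place pDCs below DCIR2 cDC2s for Slc11a1. Among cells that matched 1 class only, and equally with the UMIs of each gate doubled, Hmox1 and Slc11a1 were not called, which left both ferritin genes. Without the pDC sum of replicate 1 the same 2 genes remained, and without that of replicate 2 Fth1 alone. The call for Hmox1 was also lost with DESeq2 (adjusted p = 0.066), without the filter on cells (edgeR adjusted p = 0.083) and without cells holding C1qb (edgeR adjusted p = 0.069).

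In lymphocytes (the mean of B, T and NK cells), 5 genes were lower than in resident cDCs and 0 were higher, where 24.6% of all genes were called lower and 15% higher (39.5% in all). Ftl1, at 381 to 523 CPM over the 3 classes and both samples, had a log2 difference of -1.38 ± 0.09 (SE, n = 2, edgeR adjusted p = 1.5e-10). Fth1, at 628 to 985 CPM, had one of -1.21 ± 0.07 (adjusted p = 1.1e-11). Slc11a1 followed at -1.60 ± 0.32, Spic at -1.36 ± 0.32 and Hmox1 at -1.25 ± 0.25. Slc11a1 stood at 3.40 to 13.3 CPM in the lymphocyte classes, each value from 1 to 13 UMIs. Among resident cDCs it stood at 82.0 and 86.1 CPM in cDC1s but at 7.19 and 5.33 CPM in DCIR2 cDC2s. T cells, at 9.66 and 10.6 CPM, lay above the latter, so Slc11a1 was not lower than in each resident class. For Hmox1 the resident mean included the cDC1s rich in that gene. Blvrb, high in B cells and low in NK cells, had a difference of 0.69 ± 0.36 (adjusted p = 0.135) and of 0.79 (adjusted p = 0.034) with DESeq2. Without the lymphocyte sums of replicate 2, Spic was not called (-1.06, adjusted p = 0.16) and Blvrb was called higher (1.13, adjusted p = 0.046), and with doubled gates Hmox1 was not called (-0.41, adjusted p = 0.309). All 6 comparisons between classes share the resident cDCs or some of them.

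The other genes of haem and iron handling, 71 in 5 lists of which 58 passed the filter, were compared in the same fits. In macrophages against resident cDCs, 37 were higher and 10 lower, or 63.8% and 17.2%, where 27.7% of all genes tested were called higher and 26.1% lower. Their median log2 difference was 0.80 against -0.02 for all genes. Of 10 uptake and import genes 8 were higher and 1 lower, of 15 genes of haem transport and haem enzymes 10 were higher and 0 lower, and of 12 regulators 8 were higher and 2 lower. Of 11 genes of iron sensing, storage and export 3 were higher, a share of 27.3% that is near that of all genes, and 6 lower, or 54.5%. The regulators Maf (7.49 ± 0.26), Nr1h3 (6.49 ± 0.20), which encodes LXRα, and Ppargc1b (5.31 ± 0.30) and the transferrin gene Trf (5.74 ± 0.16) were among the higher. Maf stood at 1999 and 1894 CPM in the macrophages and 8.89 and 16.2 CPM in resident cDCs. Heph, a ferroxidase that works with ferroportin in the gut, was lower (-1.67 ± 0.15), at 21.7 and 17.1 CPM against 67.9 and 67.8 CPM, as were Atf3 (-1.60 ± 0.27) and Prdx6 (-1.54 ± 0.16). Ferroportin and Heph thus moved in opposite directions in the same comparison. Cp, of the same list as Heph, did not share its direction. It stood at 14.3 and 32.2 CPM in macrophages and 3.02 and 3.85 CPM in resident cDCs.

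Among DCs, 17 of the 58 genes were higher and 14 lower in cDC1s than in cDC2s, or 29.3% and 24.1%, against 18.6% and 17.3% of all genes. The haem exporter gene Flvcr1 was lower in cDC1s (-2.00 ± 0.13), at 28.6 and 26.8 CPM against 133 and 126 CPM, and Lrp1, the receptor for haem bound to haemopexin, was lower as well (-2.70 ± 0.20). Gclc (1.70 ± 0.15), of glutathione synthesis, was higher. In CLEC10A against DCIR2 cDC2s 8 were higher and 2 lower, or 13.8% and 3.45%, against 3.71% and 1.76% of all genes. Trf (1.77 ± 0.26) and Lrp1 (1.61 ± 0.20) were among the higher and Flvcr1 (-0.68 ± 0.14) among the lower. In mature DCs 10 were higher and 10 lower, 17.2% each, near the 17.5% and 15.9% of all genes, so these counts are no result about the lists. Gclc reached 547 and 398 CPM there (3.64 ± 0.13), and Slc7a11, the cystine importer gene, 39.7 and 38.5 CPM (2.97 ± 0.37), while Trf (-2.04 ± 0.41) and the transferrin receptor gene Tfrc (-0.99 ± 0.19) were lower. In pDCs 4 were higher, with Cp (3.78 ± 0.82) and Lrp1 (1.27 ± 0.39) named, and 2 lower, Pcbp1 (-0.59 ± 0.15) and Pcbp2 (-0.39 ± 0.13), both iron chaperones. These were 6.90% and 3.45% of the genes, against 4.55% and 6.62% of all, and with so few genes called the counts are no result about the lists. In lymphocytes 4 were higher and 20 lower, or 6.90% and 34.5%, against 15% and 24.6% of all genes, with Maf (2.77 ± 0.29) among the higher and Hfe (-3.13 ± 0.20) and Atf3 (-3.10 ± 0.28) among the lower. Of the genes in these lists, 1 was called with Cd207 in cDC1s, Hfe (0.52 ± 0.08), and 0 of 56 with Siglec1 in macrophages.

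Across the 18 sums, the genes with the profiles most like those of the recycling genes were ranked by Pearson's r of log2(CPM + 1) over 10679 genes. Hmox1 was most like Twf1 (0.97), Fcna (0.94) and Tgm1 (0.94), Slc40a1 most like Slc1a3, Fcna and Ccr3 (all 0.95), and Spic most like Nos1 (0.97), Col14a1 and Mpzl1 (both 0.96). Blvra was followed by Tcn2 (0.94), Tmem65 and Tpcn2 (both 0.93), Blvrb by Ehd1 (0.96), Lpcat3 and Trim47 (both 0.90), and Cd163 by D630033O11Rik, Lilra5 (both 0.93) and Kitl (0.92). Slc11a1 was followed by Treml4, Dhrs1 and Snx24 (all 0.94), Fth1 by Stard5 (0.97), Rell1 (0.95) and Tmem59 (0.94), and Ftl1 by Ftl1-ps1 (0.99), Creg1 (0.97) and Ms4a14 (0.94). The sums share 2 libraries and 1 class dominates most profiles, with 95 genes above 0.9 for Spic, 89 for Slc40a1 and 55 for Hmox1, but 3 for Blvrb and 11 for Fth1. The values are a description, without a test.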

How the data were processed

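Splenic CD11c+ cells of 2 wild-type samples were measured by scRNA-Seq. The authors made the deposited UMI counts, per cell and gene and without normalization, with the BD Rhapsody WTA Analysis Pipeline 1.12.1 (GRCm38 with PhiX, GENCODE vM19, refined cell calling, intronic reads counted, UMI errors corrected), and the submitters' processing notes name R 4.2.3 and Seurat 4.3.0.1. Both samples come from the same run, whose sample tags also name other mice, not analysed here.

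As in the study, cells with at least 200 genes and within the mean ± 3 median absolute deviations of mitochondrial content, genes and UMIs per sample were kept, with genes found in at least 3 cells. Mitochondrial content was taken here as the percentage of UMIs, where the methods name the number of mitochondrial genes, and the deviations were scaled by 1.4826, a factor the methods do not give. No doublet caller was run, and cells that match several classes were left out as an alternative. CPM are UMIs per 1000000 UMIs of a class. UMI sums of 9 classes and 2 samples (18 sums) were tested in 1 fit with edgeR 4.0.16 (TMM, filterByExpr, quasi-likelihood test, Benjamini-Hochberg over all genes, threshold 0.05), without the 14 gate genes, which define the classes. Splits by Siglec1 or Cd207 were fitted on 4 sums each. Standard errors are log2 fold changes over the square root of F. Resident cDCs, cDC2s and lymphocytes are means of their classes on the log scale.

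The 9 genes and all lists were chosen with earlier results of these data known. From the 71 other genes, genes that passed the test, had 1 direction in both samples and reached 20 CPM were named by size (5 up and 3 down in macrophages, 2 per direction elsewhere), and 3 likest genes per recycling gene. Some results for genes so named are not reported here. Classes of a sample come from the same mice, so the sample was tried as a block. Deviations of a sample correlated between classes by -0.10 to 0.35 (36 pairs, median 0.05). Replicates differed beyond sampling noise (chi-square per degree of freedom 5.02 in macrophages and 4.71 in cDC1s). Other alternatives were DESeq2 1.42.0, RLE scaling, no filter on cells or low counts, doubled gates and left-out sums. Tests were tried on simulated data. Python 3.11.15, numpy 2.4.6, pandas 2.3.3, scipy 1.17.1, R 4.3.3, limma 3.58.1 and matplotlib 3.10.9 were used.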

Additional observations from a re-analysis of the deposited data

How the results depend on the processing

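Of 439 fold changes of the 9 genes compared under alternatives, 0 reversed, 30 lost and 22 gained significance, 25 from 1 sample alone, with no test, moved by more than their error, and 362 did none of these. A further 381 fits concerned genes called in neither, of which 39 changed sign. The number of genes called in CLEC10A against DCIR2 cDC2s was 3 to 4 without 1 CLEC10A sum, in mature DCs 1 to 4 without 1 of their sums and 5 without cells holding C1qb (Blvra and Fth1 gained, chosen after seeing the data), and in pDCs 1 to 2 without 1 of their sums and 2 with doubled gates or cells of 1 class only. With at least 2 Cd207 UMIs it was 0. The Slc40a1 share held by macrophages was 95.001% with doubled gates. Each lone sum was assumed to vary like the others. The cause of these changes was not tested.

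With the sample as a replicate block, Slc40a1 in cDC1s, Ftl1 in CLEC10A cDC2s and Spic with Cd207 were called as well, the last with a log2 difference of 1.04, although it was 1.81 in replicate 1 and -0.27 in replicate 2. No other call changed. The median of all genes in pDCs was -0.24 with TMM and -0.09 with RLE scaling. Depth limits the pDCs most, where 1 to 3 UMIs decide a value, and 2 samples limit every test.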

Other observations

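The cDC1s with at least 20 Hmox1 UMIs, 12 in replicate 1 and 11 in replicate 2, were compared with all other cDC1s, as a description of cells chosen by that gene and after their values were seen. Apart from Hmox1, the genes with the highest ratio in the sample where it was lower included Sqstm1, which encodes the autophagy receptor p62, at 1051 and 1112 CPM against 181 and 188 CPM, and Dusp5, a phosphatase gene, at 363 and 520 CPM against 71.7 and 77.6 CPM. They also included Lgals3, which encodes galectin 3, at 2859 and 3668 CPM against 686 and 761 CPM, and Apoe at 281 and 298 CPM against 71.5 and 54.3 CPM. Jdp2, Etv3, Bcl2l11, Tent5c and Cxcl16 followed, each at least 3-fold higher with 10 CPM added to both levels. Fth1, at 1842 and 1983 CPM against 887 and 926 CPM, differed by less than Ftl1. The cells held 351 and 293 Clec9a UMIs and 81 and 178 Xcr1 UMIs, and 2 and 0 of them held at least 5 C1qb UMIs. Spic had 124 UMIs in those of replicate 1, of which 68 came from 1 cell, and 24 in those of replicate 2. Against 7.36 and 6.99 CPM in all other cDC1s, Spic stood at 536 and 107 CPM in these cells. In those of replicate 2, Slc40a1 stood at 8.89 CPM (2 UMIs) and C1qb at 4.45 CPM (1 UMI), against 5320 and 3746 CPM in the macrophages of that sample. In those of replicate 1 they stood at 316 and 125 CPM, against 6660 and 3613 CPM. Doublets were not called, and their part in either sample was not tested.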
